A study of Mus musculus with 33 samples.

Results

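Cone induction was compared with rod induction at day 12 of culture in retinal progenitors, dividing cells from which the neurons and Müller glia of the retina form. The comparison uses 6 of the 33 RNA-seq libraries of the series, chosen by their labelled day and treatment: 3 libraries of cone cultures and 3 of rod cultures. Both groups started from C57BL/6J mouse retina of embryonic day 14. The cone cultures received COCO, a secreted protein that blocks BMP, Wnt and TGF-beta ligands. The rod cultures received taurine, an amino sulphonic acid abundant in the retina, together with retinoic acid. The labels give no genetic change in either group and leave the doses, media and length of treatment to a manuscript not used here. Untreated cells were labelled at day 0 and not among the day 12 groups, so a gene that is higher in cone cultures cannot be told apart from one that is lower in rod cultures through their own treatment. The labels number the libraries of each group 1 to 3 without saying whether the numbers mark separate cultures or animals. The p-values and standard errors (SE) thus rest on a spread between libraries that may be technical. That spread was estimated with information shared over all 33 libraries, not from these 6 alone.

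Retinoic acid is made from vitamin A by retinaldehyde dehydrogenases and binds nuclear receptors (RAR, paired with RXR) that sit on short DNA repeats near target genes. Well-known targets include the enzymes that destroy it and one of its own receptors, so the pathway limits itself. BMP and TGF-beta ligands signal through SMAD proteins, Wnt ligands through beta-catenin, and all of them pattern the eye. Photoreceptors form from progenitors through Otx2 and Crx; Nrl and Nr2e3 then direct the rod fate, and Thrb and Rxrg mark cones.

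Genes carried 9214279, 13328588 and 14498049 counts in cone libraries 1 to 3 and 15249412, 12985662 and 13654708 in rod libraries 1 to 3, and 21767 to 22864 genes had a count. Mitochondrial genes took 12.4% to 21.0% of these counts, the lowest share in rod library 2 and the highest in rod library 1. Levels are given below as CPM, read counts scaled by edgeR to a common library total; CPM is not corrected for gene length, so it is compared between libraries for 1 gene and not between genes. A count of 0 allows up to 3 counts, which corresponds to 0.205 to 0.350 CPM in these libraries and covers counting error only, and no molecular identifiers are named in the labels, so PCR copies may be among them. Pax6, an eye field regulator on the progenitor list, was present in all 6 libraries. It stood at 348, 363 and 362 CPM in the cone libraries and 399.8, 512 and 449 CPM in the rod libraries. Its level alone does not show which cell types were present.

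Rod library 2 lay apart from the other 5. On the first principal component of log2 CPM over all 33 libraries, which held 60.2% of the variance and on which the days followed each other, rod libraries 1, 2 and 3 scored 57.5, -11.9 and 35.3. The cone libraries scored 61.0, 34.6 and 69.3, and the 6 day 5 libraries scored -82.6 to -45.3, so rod library 2 lay between the days. Library 2 also had the lowest score of the cone group. Across the 18150 genes tested, log2 CPM of rod library 2 correlated at 0.963 with the mean of the rod day 5 libraries and at 0.916 with that of rod day 21, whereas rod libraries 1 and 3 correlated at 0.928 and 0.948 with day 5 and at 0.974 and 0.966 with day 21. Genes are not independent replicates, so these coefficients are descriptions. The spread between libraries (edgeR's biological coefficient of variation) was 0.355 in the rod group, 0.208 without rod library 2, and 0.241 in the cone group. Results are therefore given with all libraries and without rod library 2.

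**Figure D1:**
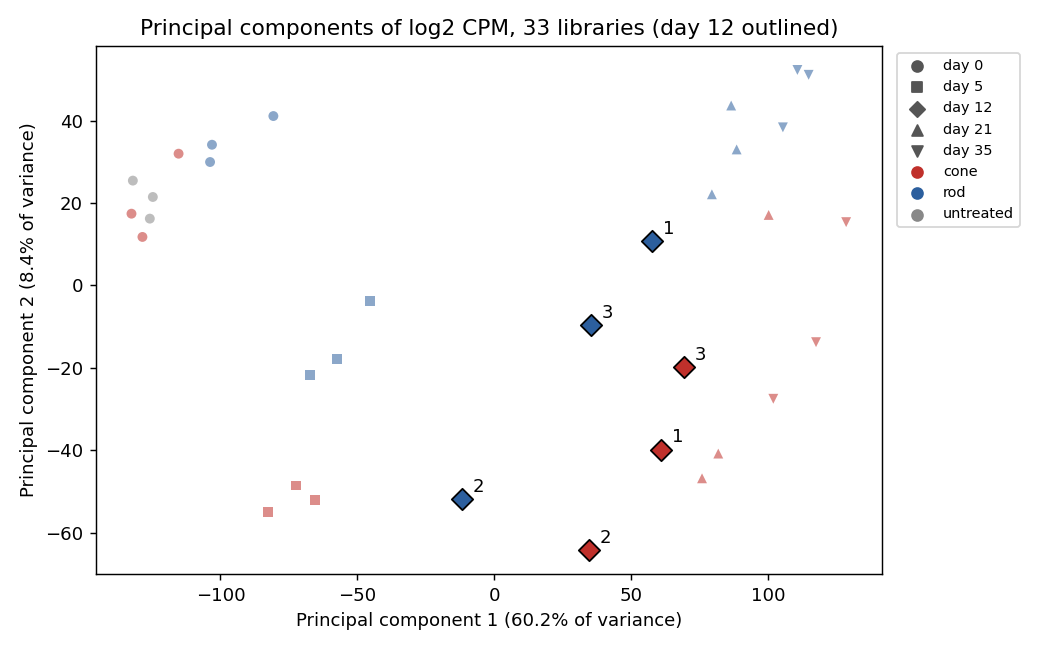
Scores of the 33 libraries on the first and second principal components of log2 CPM (share of variance on each axis), coloured by treatment and shaped by day; the 6 day 12 libraries are outlined and numbered by replicate. Rod library 2 sits at -11.9 on the first component, between the day 5 libraries and the other 5 day 12 libraries.

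Of 18150 genes tested, 1833 differed between cone and rod cultures at day 12 (10.1% of those tested; edgeR quasi-likelihood test on all 33 libraries, Benjamini-Hochberg adjusted p under 0.05, a rule used for every call below). Cone cultures had the higher level for 1085 of them (5.98% of genes tested) and the lower level for 748 (4.12%). A change of at least 2-fold was seen for 979. The median log2 fold change of all genes, cone minus rod, was -0.01. The libraries of the 2 groups did not overlap for 1669 of the called genes, read against 4053 genes without overlap among all tested (22.3%).

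When rod library 2 was left out, 1345 of 18599 genes tested were called (7.23%), 746 higher (4.01%) and 599 lower (3.22%) in cone cultures. The 2 fits shared 1073 called genes, all with the same direction. These are 58.5% of the genes called with all libraries and 79.8% of those called without rod library 2. Leaving out rod library 2 ended 760 calls and added 272. With library 2 left out of both groups, an alternative added after seeing the data, 1168 genes were called, 1014 of them also called with all libraries. The number of calls also rests on the other 27 libraries, which share in the estimate of the spread: a model of the 6 day 12 libraries alone called 363 genes, and of the 5 without rod library 2, 643.

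**Figure D2:**
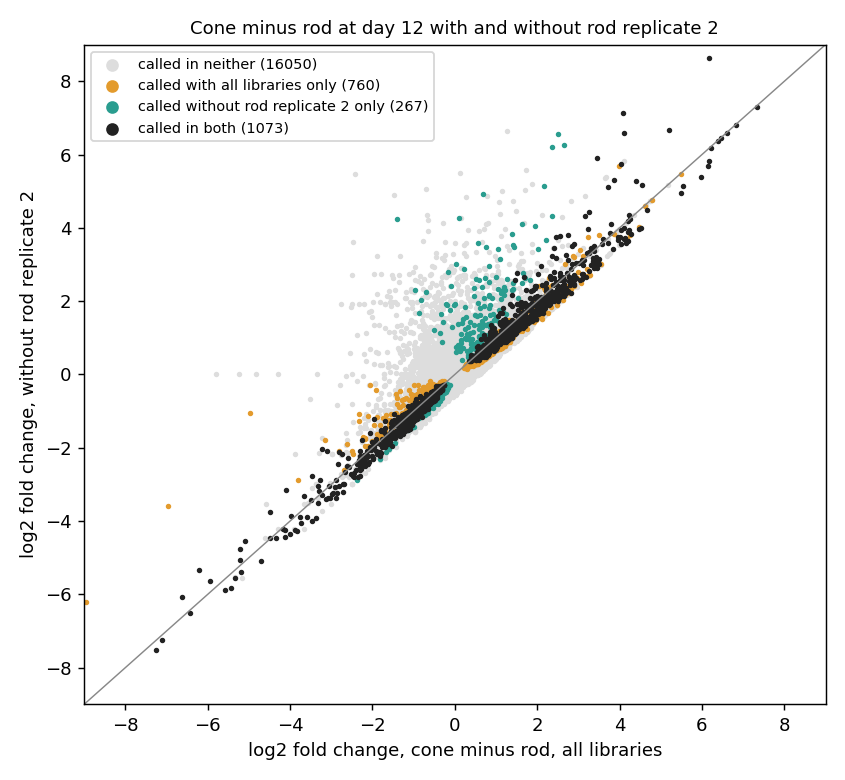
Each point is a gene tested in both fits; the x axis is its log2 fold change, cone minus rod, with all libraries and the y axis the same without rod replicate 2, with the line of equality. The 1073 genes called in both lie near the line, while genes called in neither fit (grey) include many that lie above it; 5 of the 272 genes called only without rod replicate 2 were not tested with all libraries and are not drawn.

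Genes that handle retinoic acid differed between the treatments. Calls in this and every later list are read beside 10.1% of all genes called, 5.98% higher and 4.12% lower. No list was tested as a set. Among 13 tested genes for its synthesis, transport and breakdown, 5 were lower in cone cultures and 1 was higher, with a median log2 fold change of -1.03 (-0.64 without rod library 2) beside -0.01 for all genes. Cyp26a1 encodes a cytochrome P450 that breaks retinoic acid down. It had 5.48, 3.34 and 2.32 CPM in the cone libraries and 209.9, 95.2 and 209.7 CPM in the rod libraries, a log2 fold change of -5.57 ± 0.45 (SE, n = 3 per group; adjusted p = 1.76e-08). Every rod library was far above every cone library, and rod library 2 was the lowest of its group. Without it, the log2 fold change was -5.87 (adjusted p = 2.08e-09).

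Cyp26b1, a second breakdown enzyme, had 4.32, 12.0 and 6.11 CPM in the cone libraries and 62.8, 429.9 and 293 CPM in the rod libraries (log2 fold change -5.11 ± 0.64, adjusted p = 5.03e-06). Here rod library 2 was the highest of its group, whereas it was the lowest for Cyp26a1. Dhrs3, which reduces retinaldehyde to retinol and so draws substrate away, had 25.4, 31.2 and 37.9 CPM against 305, 141 and 306 CPM (-2.99 ± 0.30, adjusted p = 2.39e-07). For Dhrs3 the cone libraries were close together, and rod library 2 lay between them and the other rod libraries. Crabp1, a carrier of retinoic acid in the cytoplasm, was lower by a smaller amount, with 10.1, 8.46 and 3.94 against 21.1, 16.0 and 35.9 CPM (-1.71 ± 0.46, adjusted p = 0.0172). All 5 genes called lower on this list were also called lower without rod library 2. With each of the 6 libraries left out in turn, the highest adjusted p was 0.119 for Crabp1 (without cone library 3), and the other 4 kept their call.

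The synthesis enzymes did not move as 1 group. Aldh1a1, the retinaldehyde dehydrogenase of the dorsal retina, was higher in cone cultures, with 265, 291 and 374 CPM against 145, 14.2 and 117 CPM (1.76 ± 0.54, adjusted p = 0.0379). The groups did not overlap, and rod library 2 was the lowest of all. Without it the log2 fold change was 1.24 and the call was lost (adjusted p = 0.114), as it was without 4 of the other 5 libraries. Aldh1a3, the ventral enzyme, had 1.28, 1.32 and 2.01 CPM against 1.36, 0.409 and 0.360 CPM, with overlap (adjusted p = 0.356). Rdh10, which makes retinaldehyde, differed by 0.28 ± 0.18 (adjusted p = 0.379). Cyp26c1, the third breakdown enzyme, stayed between 0.136 and 0.793 CPM in all 6 libraries, at or near the level of 3 counts.

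Of 11 tested receptors and responsive genes, 2 were lower and 1 was higher, with a median of -0.06. Rarb, the retinoic acid receptor that is itself a classical target, had 21.2, 18.7 and 22.9 CPM in the cone libraries and 139, 67.7 and 143 CPM in the rod libraries (-2.48 ± 0.21, adjusted p = 3.59e-08; -2.76 and 3.22e-11 without rod library 2). The other receptors Rara, Rarg, Rxra and Rxrb differed by -0.31, -0.06, 0.26 and -0.05 on the log2 scale, with adjusted p of 0.443, 0.922, 0.433 and 0.892. Among these receptors, Rarb was the 1 called. Nrip1, a nuclear receptor corepressor, was lower by a small amount (-0.44 ± 0.11, adjusted p = 0.0111), a call that did not hold with each library left out (adjusted p = 0.0684 for Nrip1 (without cone library 3)). Rai14, an actin-binding protein first named for its induction by retinoic acid, was higher in cone cultures, with 202, 168 and 272 against 131, 56.8 and 69.8 CPM (1.32 ± 0.23, adjusted p = 2.84e-04). The hindbrain targets Hoxb1 and Hoxa2 had a count of 0 in all 6 libraries.

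The promoters of the called retinoid genes were searched for the repeat that RAR binds: a pair of half-sites (the half-site AGGTCA, the variant AGTTCA, the variant GGGTCA or the variant GGTTCA) in the same orientation with a gap of 1, 2 or 5 bases, on both strands, from 250 bases before to 50 after each RefSeq start site. Of the 9 called genes, 8 had a promoter in the table and 2 held a match, Cyp26a1 and Rarb. Both matches had the gap of 5 bases. Among 32851 mouse promoters of this length, 32 (0.0974%) held a match with that gap and 193 (0.588%) with any of the 3 gaps. These shares are per promoter, whereas the called genes are counted per gene, some with more than 1 promoter. Cyp26a1 and Rarb are among the well-known targets described above, so a match in them is not new evidence. Windows are printed only for the 2 genes that held a match, which also had the smallest adjusted p of the called retinoid genes. Half-sites are in capitals. The Cyp26a1 window (GRCm38.p6, chr19:37697558-37697857, plus strand) has its match on the opposite strand, with the first base at -32 from the start site. The gene itself lies at chr19:37697798-37701536 in the GENCODE M21 annotation. The Rarb window (chr14:16575427-16575726, minus strand) has its match on the strand of the gene, with the first base at -53. Both matches lie upstream of the RefSeq start site of their window. The Rarb window lies inside the interval of the gene in the same annotation (chr14:16430839-16819156), and whether other transcripts have exons there was not analysed here.
Cyp26a1: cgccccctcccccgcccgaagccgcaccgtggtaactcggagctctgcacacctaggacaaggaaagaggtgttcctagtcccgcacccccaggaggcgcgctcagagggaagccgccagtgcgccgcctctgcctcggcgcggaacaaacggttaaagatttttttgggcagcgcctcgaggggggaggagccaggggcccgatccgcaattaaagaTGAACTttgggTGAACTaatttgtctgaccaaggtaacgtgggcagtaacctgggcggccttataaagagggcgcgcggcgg
Rarb: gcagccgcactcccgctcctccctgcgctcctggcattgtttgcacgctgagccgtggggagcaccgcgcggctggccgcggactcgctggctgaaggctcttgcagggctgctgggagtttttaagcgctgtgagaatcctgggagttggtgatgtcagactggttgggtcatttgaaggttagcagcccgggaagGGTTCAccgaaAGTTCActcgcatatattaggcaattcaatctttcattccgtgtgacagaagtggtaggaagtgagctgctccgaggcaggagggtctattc
The match is a description of these windows, and binding was not measured.

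**Figure D3:**
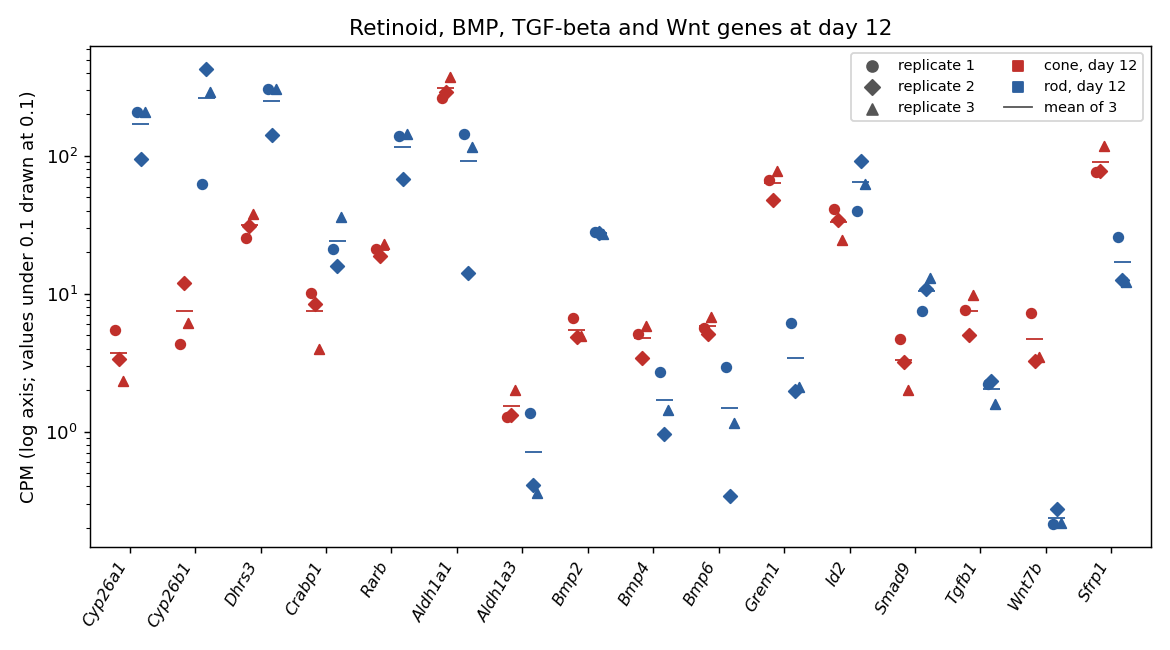
CPM on a log axis for 16 genes of the retinoid, BMP, TGF-beta and Wnt pathways at day 12, with 1 point per library shaped by replicate number, cone in red, rod in blue, and a bar at the mean of 3. The cone and rod points of Cyp26a1, Dhrs3, Rarb, Bmp2, Grem1 and Sfrp1 do not overlap; heights are not comparable between genes.

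BMP ligands differed in both directions. Of 12 tested ligands and receptors, 2 were higher in cone cultures and 2 lower, with a median of 0.08. Bmp2 had 6.65, 4.89 and 4.95 CPM in the cone libraries and 27.9, 27.6 and 27.2 CPM in the rod libraries (-2.34 ± 0.34, adjusted p = 3.54e-05). The 3 rod libraries were nearly equal for Bmp2, rod library 2 included, and the call held without it (-2.34, adjusted p = 9.53e-05). Gdf11, which limits ganglion cell number in the retina, was lower (-0.62 ± 0.14, adjusted p = 0.00399); cone library 2 at 81.7 CPM overlapped with rod library 2 at 81.0 CPM. Bmp4 and Bmp6 were higher in cone cultures, by 1.49 ± 0.40 (adjusted p = 0.0160) and 1.98 ± 0.49 (adjusted p = 0.00821). Bmp6 stayed called without rod library 2 (adjusted p = 0.0441) and Bmp4 did not (1.20, adjusted p = 0.0895). The receptors Bmpr1a, Bmpr1b, Bmpr2 and Acvr1 were not called, with adjusted p of 0.926, 0.769, 0.0590 and 0.968. Over the 6 fits that leave out 1 library each, the highest adjusted p were 0.0908 for Bmp4 (without cone library 3) and 0.0506 for Bmp6 (without rod library 3).

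Of 12 tested direct and feedback targets of BMP signals, none was called higher and 2 were called lower, beside 4.12% of all genes called lower, with a median of 0.06 (0.30 without rod library 2, where 1 was lower). Smad9, a SMAD that carries the BMP signal and is induced by it, had 4.66, 3.18 and 2.01 CPM against 7.50, 10.8 and 13.0 CPM (-1.68 ± 0.38, adjusted p = 0.00392; -1.66 and 0.0110 without rod library 2). Id2, an inhibitor of bHLH factors, had 41.5, 34.1 and 24.7 CPM against 40.1, 91.6 and 62.8 CPM (-0.96 ± 0.25, adjusted p = 0.0132). Rod library 2 was the highest of the 6 for Id2, cone library 1 overlapped with rod library 1, and its call was lost without rod library 2 (-0.63, adjusted p = 0.137). The other direct targets Id1, Id3, Id4, Smad6 and Smad7 differed by 0.16, -0.03, -0.08, -0.17 and 0.34, with adjusted p from 0.327 to 0.970.

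Among 10 tested genes of BMP antagonists, Grem1 was the 1 called, near the share of 10.1% among all genes. Grem1 encodes gremlin and had 66.8, 47.5 and 77.8 CPM in the cone libraries and 6.14, 1.98 and 2.09 CPM in the rod libraries (4.23 ± 0.55, adjusted p = 7.99e-06), and 3.95 without rod library 2 (adjusted p = 1.15e-04). Every cone library lay above every rod library. Dand5, the mouse gene for COCO, had 2.45, 2.64 and 2.09 CPM against 3.00, 5.25 and 3.75 CPM (-0.74 ± 0.29, adjusted p = 0.104). The antagonists Nog, Chrd, Fst and Chrdl1 differed by 1.24, 0.15, 0.89 and 0.19, with adjusted p from 0.238 to 0.903.

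The TGF-beta and activin pathway had more calls. Of 16 tested genes, 6 were higher in cone cultures and 1 was lower, with a median of 0.74 (0.77 without rod library 2). The ligand Tgfb1 had 7.58, 5.05 and 9.74 CPM against 2.21, 2.32 and 1.59 CPM (1.86 ± 0.35, adjusted p = 6.50e-04), and Tgfb3 had 70.9, 71.2 and 99.5 CPM against 41.6, 27.3 and 28.8 CPM (1.31 ± 0.24, adjusted p = 5.18e-04). Tgfb2 differed by 0.28 ± 0.17 (adjusted p = 0.356). Of the receptors, Tgfbr2 was higher, with 26.7, 20.3 and 25.0 against 7.21, 7.44 and 9.16 CPM (1.59 ± 0.32, adjusted p = 0.00163), while Tgfbr1 differed by -0.14 ± 0.12 (adjusted p = 0.569). Ltbp2, a latent TGF-beta binding protein family member of the matrix, was higher by 2.11 ± 0.34 (adjusted p = 1.97e-04).

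Tgfb1, Tgfb3, Tgfbr2 and Ltbp2 kept their call without rod library 2. Tgfbi, a matrix protein induced by TGF-beta, did not: it was higher by 1.69 ± 0.50 (adjusted p = 0.0285) with all libraries and by 1.48 without rod library 2 (adjusted p = 0.118). Inhbb, an activin subunit, went the other way, from 1.20 (adjusted p = 0.0682) to 2.18 (adjusted p = 9.40e-04). Pmepa1, a target that restrains the pathway, was lower in cone cultures (-0.67 ± 0.15, adjusted p = 0.00513), so the targets did not all differ in 1 direction. In bulk RNA such as this, fewer cells of a type and less RNA per cell cannot be told apart. Mesenchyme, pericyte and smooth muscle markers moved with these genes: 7 of 16 were higher in cone cultures, and their summed level ranged from 3559 to 5208 CPM in the cone libraries and 1882 to 3057 CPM in the rod libraries. Their part in the TGF-beta result was not tested.

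Wnt pathway genes were called in both directions: of 25 tested, 5 were higher and 4 lower in cone cultures, with a median of 0.29 (0.10 without rod library 2). Among ligands, Wnt7b had 7.23, 3.26 and 3.48 CPM against 0.214, 0.273 and 0.216 CPM (4.24 ± 0.67, adjusted p = 9.58e-05), with the rod libraries at about the level of 3 counts. Wnt5a, which signals without beta-catenin, was lower, with 26.6, 19.9 and 21.3 against 81.6, 25.3 and 48.7 CPM (-1.20 ± 0.29, adjusted p = 0.00772); rod library 2 overlapped with the cone libraries. Rspo3, an R-spondin that strengthens Wnt signals, had 2.45, 4.19 and 1.24 CPM in the cone libraries and 0.0714, 0.0682 and 0.144 CPM in the rod libraries (4.66 ± 0.80, adjusted p = 5.51e-04). The rod libraries held 4 reads of Rspo3 in all, each below 3 counts, so the size of its fold change rests on very few reads. Its receptor Lgr5 was higher by 1.30 ± 0.40 (adjusted p = 0.0380; not called without rod library 2). Leaving out 1 library gave adjusted p of up to 0.0782 for Wnt5a (without rod library 1) and 0.175 for Lgr5 (without rod library 3).

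Secreted genes of the Sfrp and Dickkopf families, which include Wnt inhibitors, also differed. Sfrp1 had 77.1, 77.7 and 118 CPM against 26.0, 12.6 and 12.3 CPM (2.43 ± 0.33, adjusted p = 1.79e-05) and Dkk2 8.28, 7.61 and 6.03 CPM against 1.36, 0.409 and 0.288 CPM (3.40 ± 0.67, adjusted p = 0.00117). Dkk3, a Dickkopf relative strongly expressed in Müller glia, was lower, with 966, 856 and 939.9 against 1922, 1299.5 and 1850.5 CPM (-0.88 ± 0.18, adjusted p = 0.00175). Sfrp1 and Dkk2 were thus higher in cone cultures and Dkk3 was lower, and whether Dkk3 acts on Wnt signals here was not tested. Nkd1, a feedback target, was lower, at -1.16 ± 0.20 (adjusted p = 2.35e-04), and Tcf7, a nuclear effector, at -1.27 ± 0.40 (adjusted p = 0.0433), up to 0.239 for Tcf7 (without rod library 1). Axin2 and Lef1, the usual readouts of beta-catenin, differed by -0.19 ± 0.19 (adjusted p = 0.624) and 0.42 ± 0.40 (adjusted p = 0.602).

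Of 12 hedgehog pathway genes, 1 was called, near the share of 10.1% among all genes. Cdon, a co-receptor for hedgehog, had 189, 224 and 266 CPM in the cone libraries and 705, 441 and 652 CPM in the rod libraries (-1.40 ± 0.16, adjusted p = 1.00e-06). Ptch1, the receptor and standard target, was called lower only without rod library 2 (-0.59, adjusted p = 0.0352) and differed by -0.49 ± 0.16 with all libraries (adjusted p = 0.0520). Of 14 Notch pathway genes, 3 were called, beside the same 10.1% of all genes. Jag1, a ligand, was higher in cone cultures, with 108, 74.6 and 106 against 29.4, 17.4 and 16.7 CPM (2.18 ± 0.32, adjusted p = 3.79e-05). Nrarp, a feedback target, was higher by 0.67 ± 0.20 (adjusted p = 0.0314) and Hes1, the main effector in progenitors, was lower, at -0.66 ± 0.21 (adjusted p = 0.0382). Both of these calls were lost without rod library 2 (adjusted p = 0.0704 and 0.0591), and the highest adjusted p with 1 library left out were 0.140 for Nrarp (without cone library 3) and 0.128 for Hes1 (without rod library 3). Taurine itself is taken up by the transporter Slc6a6 and acts on glycine receptors. None of the 9 tested genes for its transport, synthesis and receptors was called, and Slc6a6 had 285, 279 and 307 CPM against 313, 281 and 367 CPM (-0.14 ± 0.22, adjusted p = 0.765).

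The summed levels of the 4 photoreceptor lists were highest in library 2 of both cultures. The summed level of 16 tested shared photoreceptor genes was 227, 1673 and 259 CPM in cone libraries 1 to 3 and 136, 3098 and 249 CPM in rod libraries 1 to 3. The 11 rod phototransduction genes summed to 53.6, 534 and 73.8 CPM in the cone libraries and to 26.1, 1719.55 and 76.8 CPM in the rod libraries. The 9 tested cone phototransduction genes summed to 41.1, 155 and 29.1 CPM in the cone libraries and 31.1, 214 and 54.1 CPM in the rod libraries. For 14 photoreceptor transcription factors the sums were 392, 799 and 413 CPM in the cone libraries and 469, 1669 and 542 CPM in the rod libraries, beside 1597 to 3514 CPM in the 6 day 5 libraries. Library 2 therefore differed from libraries 1 and 3 within each treatment, and the part of its place between the days in the photoreceptor results was not tested.

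With all libraries, 1 of the 50 tested photoreceptor genes was called, Onecut2. The medians changed sign with rod library 2: for rod phototransduction from -1.49 with it to 2.14 without it, for shared genes from -0.66 to 2.51, and for photoreceptor transcription factors from -0.84 to 0.85. For cone phototransduction the median was 0.53, or 0 with genes at the level of 3 counts set to no change, and 1.79 without rod library 2. With library 2 left out of both groups the 4 medians lay between -0.03 and 0.69. In that fit no gene of the 4 lists was called higher in cone cultures. The calls of Prdm1, Pde6c and Impg2 given below, gained without rod library 2 alone, were thus absent. Cone library 2, the cone library with the highest sums, stayed in the fit that gained them.

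Among the transcription factors, Otx2, at the head of the photoreceptor programme, had 12.5, 41.5 and 14.8 CPM in the cone libraries and 22.1, 92.5 and 40.0 CPM in the rod libraries (adjusted p = 0.120). Crx, which drives genes of both photoreceptor types, had 38.4, 129 and 34.4 CPM against 38.8, 431 and 78.0 CPM (-1.44 ± 0.61, adjusted p = 0.148). Nrl, the rod determinant, had 0.816, 15.1 and 2.47 CPM against 0.428, 105 and 3.10 CPM (-2.51 ± 1.07, adjusted p = 0.148). In both genes library 2 was the highest of its group, and rod library 2 the highest of all. Without rod library 2 Crx differed by 0.20 (adjusted p = 0.890) and Nrl by 1.84 (adjusted p = 0.343). Without cone library 2 instead, the fits called both genes lower in cone cultures, Crx at -2.33 (adjusted p = 0.0306) and Nrl at -4.36 (adjusted p = 0.0484). Without rod library 1 they did so too, at -1.93 (adjusted p = 0.0251) and -3.10 (adjusted p = 0.0305). The sign of both differences thus depended on which library was left out.

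Nr2e3, the partner of Nrl, followed the same order of libraries, with 2.68, 33.1 and 6.34 CPM against 0.571, 153 and 5.62 CPM (adjusted p = 0.420). Thrb, the thyroid hormone receptor of cones, had 17.7, 33.8 and 9.05 against 8.21, 42.8 and 10.5 CPM (adjusted p = 0.987), and Rxrg stayed under 2 CPM in all 6 libraries. Prdm1, a factor that favours photoreceptors over bipolar cells, was called higher in cone cultures only without rod library 2, at 1.68 (adjusted p = 0.00924) against -0.87 with it (adjusted p = 0.420). Onecut2, a factor of early retinal fates including horizontal cells and cones, was lower in cone cultures in both fits. It had 13.2, 20.5 and 12.8 CPM against 34.8, 25.8 and 50.3 CPM (-1.25 ± 0.23, adjusted p = 5.40e-04; -1.45 and 1.16e-04 without rod library 2).

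Genes of the light response itself were low outside library 2. The short-wavelength cone opsin Opn1sw had 0.117, 1.86 and 0.309 CPM in the cone libraries and 0, 1.09 and 0.288 CPM in the rod libraries, near or below 3 counts in 4 of them, and Opn1mw had at most 1 count per library and was not tested. Gnat2, cone transducin, had 2.80, 9.09 and 1.78 CPM against 0.785, 6.28 and 2.45 CPM (0.53 ± 0.55, adjusted p = 0.629). Arr3, cone arrestin, had 1.28, 2.17 and 0.619 CPM against 0.143, 0.546 and 0.216 CPM; the groups did not overlap, but the difference of 2.13 ± 0.78 was not called (adjusted p = 0.0884). Pde6c, the cone phosphodiesterase, was called higher in cone cultures only without rod library 2 (2.61, adjusted p = 0.00715, against 1.28 and 0.171 with it). None of the 9 cone phototransduction genes was called with all libraries or with library 2 left out of both groups.

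Of the rod phototransduction genes, Gnat1, rod transducin, had 3.73, 47.6 and 8.89 CPM in the cone libraries and 7.85, 228 and 17.2 CPM in the rod libraries (-2.06 ± 0.98, adjusted p = 0.207), and Sag, rod arrestin, 22.5, 192 and 25.5 against 4.07, 654 and 21.8 CPM (-1.49 ± 1.05, adjusted p = 0.439). Library 2 was the highest of its group for both genes, and the groups overlapped. Without cone library 2, Gnat1 was called lower in cone cultures, at -3.71 (adjusted p = 0.0464), and without rod library 2 it stood at 0.69 (adjusted p = 0.756). Of the shared genes, Rp1, a microtubule protein of the outer segment, had 52.7, 393 and 58.0 CPM against 19.2, 877 and 37.9 CPM (adjusted p = 0.664). Rbp3, the retinoid carrier between photoreceptors and pigment epithelium, had 40.7, 373 and 36.8 CPM against 12.9, 455 and 32.6 CPM (adjusted p = 0.953). Impg2, a component of the matrix around photoreceptors, was called only without rod library 2 (2.80, adjusted p = 0.0424).

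**Figure D4:**
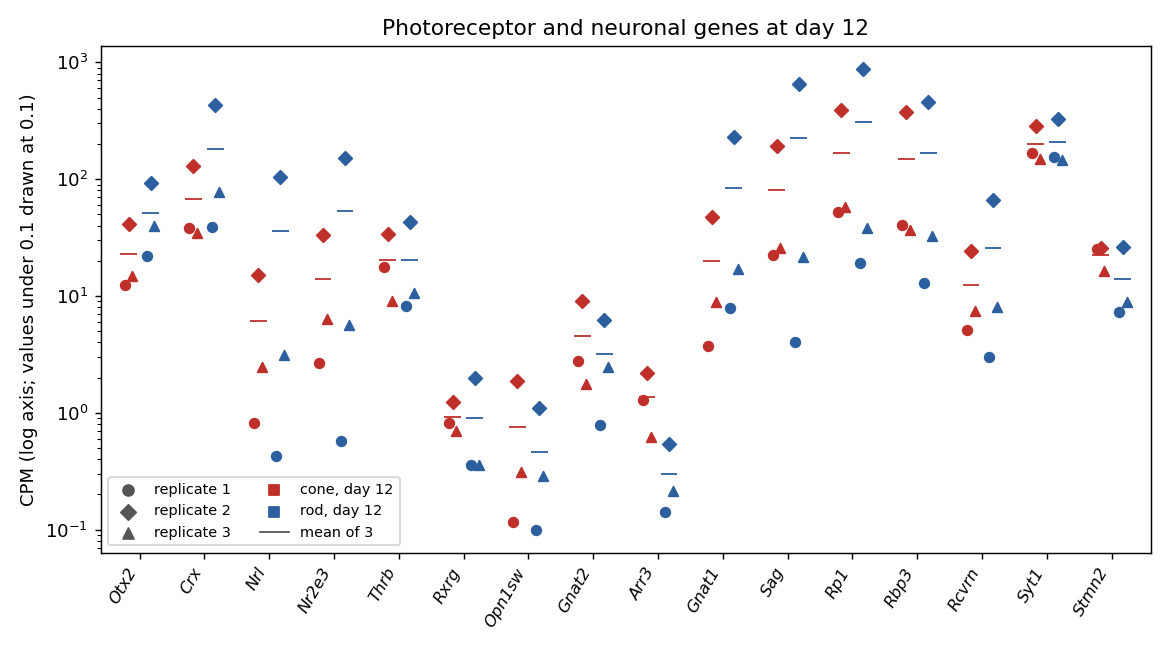
CPM on a log axis for 14 photoreceptor genes and 2 neuronal genes at day 12, drawn as 1 point per library with replicate numbers as shapes. Replicate 2 (diamonds) is the highest library of its group for every photoreceptor gene drawn, in both cultures, for example 192 CPM in cone and 654 CPM in rod for Sag; heights are not comparable between genes.

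Of 12 tested progenitor genes, 4 were lower in cone cultures and 1 was higher, with a median of -0.54 (-0.19 with genes at the level of 3 counts set to no change). Without rod library 2, 3 were lower and none higher, with a median of -0.23. Rax, the eye field homeobox gene, had 23.6, 26.1 and 18.6 CPM against 45.9, 54.4 and 44.0 CPM (-1.08 ± 0.20, adjusted p = 6.50e-04). Nr2e1, a nuclear receptor of neural progenitors, had 19.8, 18.4 and 22.7 CPM against 38.3, 83.7 and 48.1 CPM (-1.48 ± 0.26, adjusted p = 3.75e-04). For Rax and Nr2e1 every cone library was below every rod library, and the calls held without rod library 2. Ccnd1, the G1 cyclin of retinal progenitors, was higher in cone cultures by 0.84 ± 0.23 (adjusted p = 0.0175), a call lost without rod library 2 (adjusted p = 0.119). Six6, an eye field homeobox gene, was lower, at -0.75 ± 0.22 (adjusted p = 0.0254), with adjusted p up to 0.204 for Six6 (without cone library 3).

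None of 17 tested cell cycle genes was called with or without rod library 2 (medians 0.20 and -0.09). Mki67, the marker of cycling cells, had 699.7, 737 and 1006 CPM against 1029, 398 and 704 CPM (0.20 ± 0.29, adjusted p = 0.756), with rod library 2 the lowest of the 6. Of 11 tested proneural genes, 1 was called, near the share of 10.1% among all genes. It was Gadd45g, a stress and neurogenesis gene, higher in cone cultures by 0.94 ± 0.24 (adjusted p = 0.0127, up to 0.123 for Gadd45g (without cone library 3)). Sox15 stayed between 0.143 and 0.649 CPM in all 6 libraries and differed by 0.19 ± 0.75 (adjusted p = 0.922).

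For genes of other retinal neurons, the counts called with all libraries were 2 of 14, 1 of 13, 1 of 10 and 0 of 15 in the 4 lists that follow, beside 10.1% of all genes. Of the 14 tested amacrine and horizontal cell genes, Tfap2a, the AP-2 factor of amacrine cells, was higher, with 38.8, 48.6 and 46.5 against 9.35, 33.8 and 5.70 CPM (1.45 ± 0.43, adjusted p = 0.0272), and Slc6a9, a glycine transporter, was lower (-0.93 ± 0.21, adjusted p = 0.00365). Without rod library 2, 6 of the 14 were called higher and 1 lower, with a median of 1.20 in place of -0.06. With library 2 left out of both groups, 3 were called higher, and Tfap2a stood at 2.50 (adjusted p = 3.00e-04). The call of Tfap2a was nevertheless lost without rod library 3 (adjusted p = 0.149). Of 13 ganglion cell genes, Ebf3 was lower (-1.36 ± 0.44, adjusted p = 0.0495; 0.0840 without rod library 2 and up to 0.229 for Ebf3 (without cone library 3)). The median of the ganglion cell list was -0.80 with all libraries and 0.96 without rod library 2, where Nefh, the heavy neurofilament, was the 1 called higher (1.94, adjusted p = 0.0486; 0.57 ± 0.58 and 0.623 with it). With library 2 left out of both groups, no ganglion cell gene was called. Of 10 bipolar genes, all had a negative log2 fold change (median -1.21), and Cabp5, a calcium-binding protein of bipolar cells, was the 1 called (-2.11 ± 0.61, adjusted p = 0.0254; 0.291 without rod library 2). None of 15 pan-neuronal and synaptic genes was called with all libraries; Syt1, the synaptic vesicle calcium sensor, had 168, 285 and 150.2 against 153, 330.0 and 146 CPM (-0.06 ± 0.27, adjusted p = 0.932). Without rod library 2 the median of this list went from -0.21 to 0.63, and Stmn2, a microtubule regulator of growing axons, was called higher (1.45, adjusted p = 0.00513; 0.66 ± 0.35 and 0.277 with it).

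Müller glia are the resident glia of the retina, and 5 of 12 tested genes were lower in cone cultures and none higher (median -0.40, and -0.38 without rod library 2). Rlbp1, the retinaldehyde-binding protein of these cells, had 41.1, 65.9 and 36.5 CPM against 106, 174 and 120.0 CPM (-1.48 ± 0.34, adjusted p = 0.00481). Spon1, a secreted matrix protein, had 422, 381 and 299.9 CPM against 912, 495 and 789 CPM (-0.99 ± 0.20, adjusted p = 0.00178). Kcnj10, their potassium channel, was lower, at -1.16 ± 0.29 (adjusted p = 0.00821), with cone library 2 above rod library 2. Its highest adjusted p with 1 library left out was 0.0897 for Kcnj10 (without rod library 3). Glul and Slc1a3, standard Müller glia markers, differed by -0.01 ± 0.18 and 0.09 ± 0.20 (adjusted p = 0.983 and 0.855). The summed level of the list overlapped between groups, at 1861 to 2649 CPM (cone) and 2307 to 2947 CPM (rod).

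Of 12 astrocyte and reactive glia genes, 3 were higher in cone cultures, and none of the 3 was called without rod library 2. They were Cd44, a hyaluronan receptor (1.02 ± 0.25, adjusted p = 0.00956), Vim, the filament vimentin (0.87 ± 0.26, adjusted p = 0.0276), and Serpina3n, a reactive astrocyte gene (1.58 ± 0.45, adjusted p = 0.0279). The highest adjusted p with 1 library left out were 0.0621 for Cd44 (without cone library 3), 0.165 for Vim (without rod library 2) and 0.186 for Serpina3n (without cone library 1). Gfap, the filament of reactive glia, had 141, 77.0 and 40.4 CPM against 69.8, 27.2 and 71.5 CPM, with overlap (adjusted p = 0.439).

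Olig1 and Olig2 are bHLH factors of the oligodendrocyte lineage and of neural progenitors. Olig1 had 17.6, 12.1 and 8.51 CPM in the cone libraries and 0.214, 0.0682 and 0.216 CPM in the rod libraries (6.18 ± 0.63, adjusted p = 3.06e-07), and Olig2 had 16.4, 7.69 and 4.79 CPM against 0.286, 0 and 0.144 CPM (5.98 ± 0.59, adjusted p = 3.88e-07). The rod libraries were at or below about 3 counts for both, so these log2 values depend on few rod reads. Both genes were also called without rod library 2. Of 11 tested genes of the lineage list, 2 were higher, 1 was lower and 8 were not called, with a median of -0.06. The summed list overlapped between groups, at 56.4 to 93.9 CPM (cone) and 62.3 to 209 CPM (rod). Some other members were near 0: Sox10 had 1 count in 1 library, and Mog and Gpr17 had none. The 1 lower gene was Pdgfra (-2.33 ± 0.66, adjusted p = 0.0219), a call lost without rod library 2 (-1.07, adjusted p = 0.349).

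Markers of cells from outside the neural retina were compared as well. Of 16 tested mesenchyme, pericyte and smooth muscle genes, 7 were higher in cone cultures and 1 lower (median 1.63; 1.29 without rod library 2, with 4 higher and 1 lower; Col1a2, Des and Pdgfrb were the 3 lost). Col1a1, type I collagen, had 216, 244 and 230.1 CPM against 20.4, 7.98 and 15.9 CPM (3.96 ± 0.59, adjusted p = 4.55e-05). Prrx1, a mesenchymal homeobox factor, had 158, 95.7 and 108 CPM against 30.0, 16.6 and 30.9 CPM (2.22 ± 0.44, adjusted p = 0.00117). Acta2, smooth muscle actin, had 864, 855 and 1406 CPM against 438, 127 and 209 CPM (2.01 ± 0.44, adjusted p = 0.00311), and Twist1 was higher by 2.04 ± 0.47 (adjusted p = 0.00501). The summed list ranged from 3559 to 5208 CPM in the cone libraries and from 1882 to 3057 CPM in the rod libraries, without overlap. The 1 lower gene was Postn, periostin, which falls outside the naming rule and is given because it goes against the list, with 13.5, 14.2 and 11.8 CPM against 91.3, 62.3 and 156 CPM (-2.97 ± 0.77, adjusted p = 0.0123). Leaving out 1 library gave adjusted p of up to 0.0609 for Col1a2 (without cone library 1), 0.0735 for Des (without rod library 2), 0.0806 for Pdgfrb (without rod library 2) and 0.0672 for Postn (without cone library 3).

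In other such lists, some genes were near the detection limit. Of 15 tested microglia and macrophage genes, 2 were higher: Lyz2, lysozyme, with 27.2, 16.9 and 2.47 against 1.29, 0.955 and 1.23 CPM (3.72 ± 0.78, adjusted p = 0.00215), and Tmem119, with 1.52, 0.777 and 0.464 CPM in the cone libraries and no count in any rod library. Against the level of 3 counts per library, Tmem119 was at least 2.12 higher in cone cultures on the log2 scale (adjusted p = 0.00202). The summed list ranged from 12.4 to 76.2 CPM in the cone libraries and 7.21 to 25.5 CPM in the rod libraries, with overlap. Of 8 tested lens genes, 3 were higher: Mip, the lens aquaporin (1.17, 1.16 and 1.55 CPM against 0.143, 0 and 0), Cryba1 (2.10, 2.17 and 4.25 against 0.500, 0.136 and 0.721 CPM) and Cryaa (0.466, 0.621 and 2.24 CPM against 0 in every rod library, at least 2.39 higher on the log2 scale). Their adjusted p were 0.00102, 0.0324 and 0.00792. The lens list summed to 94.3 to 202 CPM in the cone and 55.4 to 138 CPM in the rod libraries, with overlap, and Foxe3 and Lim2 were at 0 in all 6. The calls of 2 lens genes did not hold with each library left out, with adjusted p up to 0.161 for Cryba1 (without cone library 3) and 0.0533 for Cryaa (without cone library 3).

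Of 7 tested endothelial genes, Flt1, a VEGF receptor, was lower (12.2, 15.9 and 7.73 against 22.6, 76.5 and 49.4 CPM; -2.05 ± 0.44, adjusted p = 0.00253) and Eng, endoglin, was higher (2.19 ± 0.69, adjusted p = 0.0417), a call lost with any 1 of the 6 libraries left out (up to 0.157 for Eng (without rod library 3)). Tie1 and Cldn5 had at most 2 counts per library. Of 5 tested pigment epithelium genes, Mitf, its master factor, was higher (0.99 ± 0.24, adjusted p = 0.00657) and Ttr, transthyretin, was lower, with 0.350, 0.155 and 0.155 CPM against 2.00, 3.14 and 6.20 CPM (-4.13 ± 0.71, adjusted p = 2.62e-04). Rpe65 and Mlana were at 0 in all 6 libraries. The part of these other cell types in the differences above was not tested.

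Genes that pattern the retina from dorsal to ventral differed too. Of 14 tested, 3 were lower in cone cultures and 1 was higher (median -0.57, and -0.71 without rod library 2, with 6 lower). Tbx2, a T-box factor of the dorsal retina, had 28.2, 53.5 and 27.1 CPM against 270.2, 128 and 309 CPM (-2.70 ± 0.27, adjusted p = 2.39e-07), and Tbx3, its relative, was lower, at -0.97 ± 0.23 (adjusted p = 0.00544). Ephb2, a ventral Eph receptor, was lower as well, with 158, 157 and 181 against 705, 322 and 587 CPM (-1.70 ± 0.21, adjusted p = 4.41e-06). Vax1, a ventral homeobox factor of the optic stalk, was higher, with 7.11, 3.11 and 2.32 against 0.214, 0.682 and 0 CPM (3.72 ± 0.82, adjusted p = 0.00319). Dorsal and ventral genes were therefore both among those lower in cone cultures.

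Of 15 tested interferon and MHC class I genes, 4 were higher in cone cultures and none lower (median 0.83; 0.81 without rod library 2, with 3 higher and 1 lower). Ifit1, an antiviral effector, had 3.85, 4.43 and 2.24 CPM against 0.357, 0.0682 and 0.721 CPM (3.17 ± 0.62, adjusted p = 0.00156), Ifit3 was higher by 2.46 ± 0.46 (adjusted p = 6.99e-04), and the class I genes H2-D1 and H2-K1 by 1.09 ± 0.32 and 0.81 ± 0.26 (adjusted p = 0.0304 and 0.0487). These class I calls did not hold with each library left out, with adjusted p up to 0.173 for H2-D1 (without rod library 3) and 0.174 for H2-K1 (without rod library 3). Genes of the class I family are near copies of each other, so reads could be split among them. Of 16 glycolysis and hypoxia genes, 3 were lower in cone cultures: Eno1, enolase (1181, 1238 and 1057 against 2456, 2421 and 2531 CPM; -1.09 ± 0.18, adjusted p = 1.88e-04), Slc2a1, the main glucose transporter of retina (-0.94 ± 0.20, adjusted p = 0.00238), and Vegfa (-1.42 ± 0.45, adjusted p = 0.0430). Vegfa had 615 CPM in rod library 2, the highest of the 6, and lost its call without it (adjusted p = 0.441). With rod library 2 left out the list had 3 genes higher and 2 lower, and its median went from -0.28 to 0.23.

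**Figure D5:**
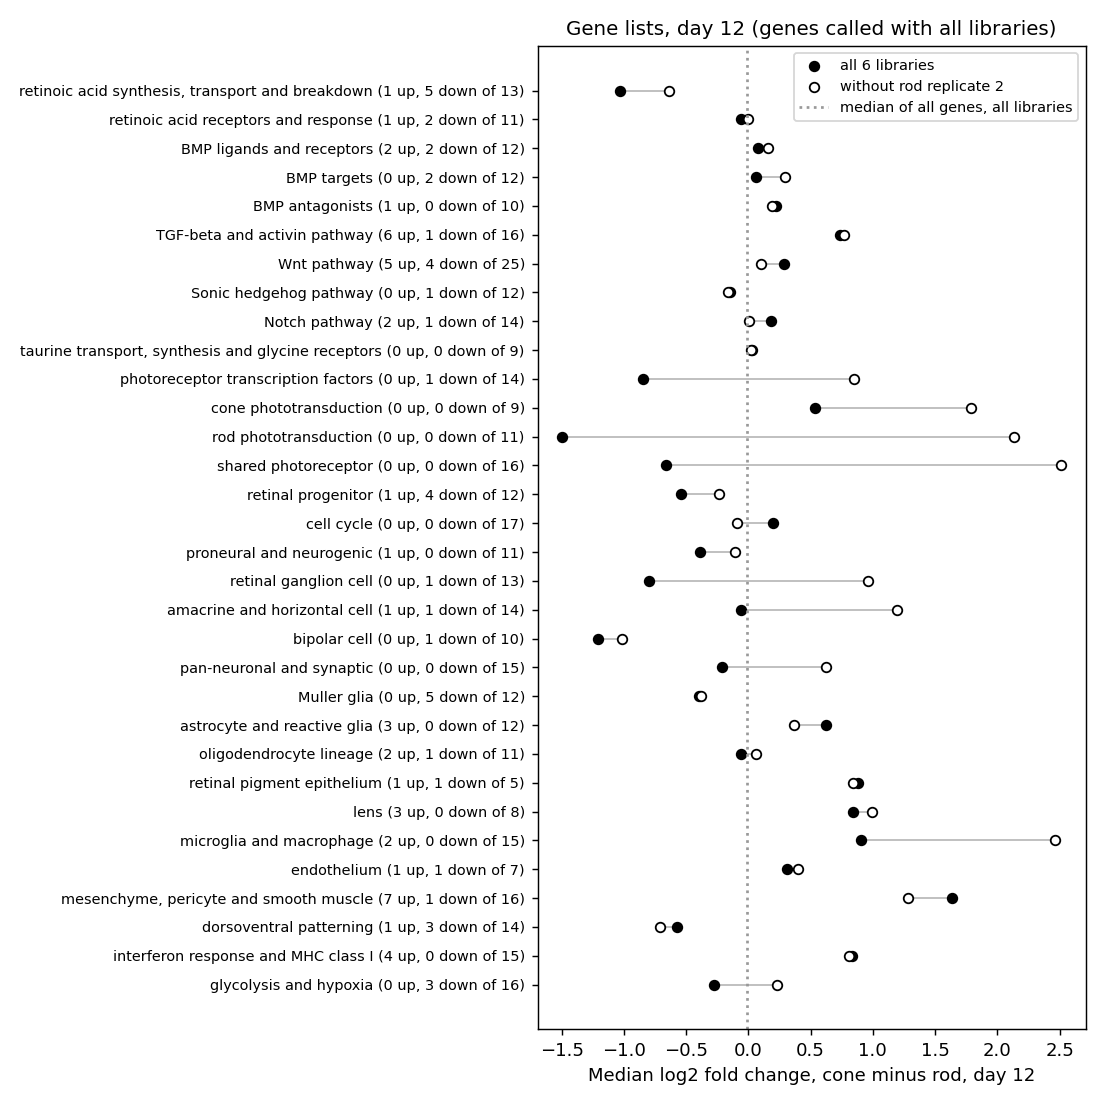
Median log2 fold change, cone minus rod, of each gene list at day 12 with all libraries (filled) and without rod replicate 2 (open), with the median of all genes as a dotted line and the calls with all libraries in brackets. The 4 photoreceptor lists and the ganglion cell, amacrine and microglia lists shift by more than 1 between the filled and open points, whereas the TGF-beta list stays at 0.74 and 0.77.

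Of the called genes whose groups did not overlap and whose log2 CPM averaged 1 or more, the 10 with the largest rise in cone cultures were Fibin, Tll2, Scel, Grem1, Lama3, Edaradd, Pcp4l1, Col1a1, Npvf and Lyz2. Fibin, a secreted factor, had 24.7, 28.5 and 39.8 CPM against 0.500, 0.273 and 1.23 CPM (5.53 ± 0.51, adjusted p = 2.39e-07). Tll2, a tolloid-like protease of the family that cleaves procollagen and BMP antagonists, had 12.4, 17.2 and 22.7 CPM against 1.36, 0.136 and 0.865 CPM (4.46 ± 0.57, adjusted p = 6.76e-06). Scel, sciellin of stratified epithelia, and Lama3, a laminin chain of epithelial basement membranes, were higher by 4.28 ± 0.54 and 4.21 ± 0.51 (adjusted p = 5.12e-06 and 3.39e-06). Pcp4l1, a small relative of the calmodulin regulator Pcp4, had 212, 199.7 and 278 CPM against 20.6, 9.82 and 13.6 CPM (3.97 ± 0.33, adjusted p = 2.54e-08). Edaradd, the adaptor of the ectodysplasin receptor, and Npvf, a neuropeptide precursor, were higher by 4.00 ± 0.49 and 3.83 ± 0.53 (adjusted p = 3.72e-06 and 1.66e-05). All 10 stayed called without rod library 2.

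The 10 largest falls were Gata2, Cyp26a1, Pou3f4, Cyp26b1, Rcsd1, Kank4, Galnt3, Nwd2, Enpp2 and Il33. Gata2, a zinc finger transcription factor, had 0.583, 0 and 0.155 CPM in the cone libraries and 19.4, 17.1 and 20.2 CPM in the rod libraries (-6.43 ± 0.68, adjusted p = 4.73e-07). Pou3f4, a POU-domain transcription factor, had 0.816, 0.388 and 0.0773 CPM against 17.9, 10.4 and 15.4 CPM (-5.19 ± 0.56, adjusted p = 6.61e-07). The cone libraries lay near or under 3 counts for both, whereas every rod library was above 10 CPM. Nwd2 had 8.63, 8.62 and 1.70 CPM against 113, 46.6 and 90.8 CPM (-3.75 ± 0.48, adjusted p = 6.76e-06). Enpp2, autotaxin, which makes lysophosphatidic acid, had 2.92, 4.12 and 1.24 CPM against 21.6, 49.3 and 33.2 CPM (-3.66 ± 0.46, adjusted p = 6.48e-06), and Il33, a nuclear cytokine, 5.25, 5.20 and 2.78 against 44.8, 28.4 and 84.5 CPM (-3.59 ± 0.60, adjusted p = 2.14e-04). Galnt3, an O-glycosylation enzyme, Kank4 and Rcsd1 were lower, at -3.76 ± 0.45, -3.88 ± 0.51 and -3.99 ± 0.63 (adjusted p = 3.04e-06, 9.38e-06 and 9.74e-05). All 10 kept their call in the fit without rod library 2.

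The day 12 difference was then set against those of day 5 and day 21 by testing, in the same model, whether the cone minus rod difference changed. It changed from day 5 to day 12 for 583 genes (3.21% of genes tested), 380 upwards and 203 downwards, and from day 12 to day 21 for 78 genes (0.43%), 52 upwards and 26 downwards. These counts were 134 and 38 without rod library 2. Neither retinoid breakdown enzyme changed detectably between the days: the difference of Cyp26a1 was -4.72 ± 0.41 at day 5, -5.57 at day 12 and -4.78 ± 0.43 at day 21, and that of Cyp26b1 -5.37 ± 0.65, -5.11 and -5.32 ± 0.64. The changes from day 5 to day 12 were -0.86 ± 0.55 (adjusted p = 0.393) and 0.26 ± 0.82 (adjusted p = 0.892), and from day 12 to day 21 the adjusted p were 0.593 and 0.947. The difference of Rarb did shrink, from -4.04 ± 0.23 at day 5, a change of 1.56 ± 0.30 (adjusted p = 0.00726), as did that of Bmp2, from -4.11 ± 0.37 (change 1.77 ± 0.49, adjusted p = 0.0437; 0.118 without rod library 2).

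Col7a1, the collagen of anchoring fibrils, differed by 0.32 ± 0.31 at day 5, 3.58 ± 0.31 at day 12 and 1.73 ± 0.29 at day 21; the change from day 5 was 3.27 ± 0.43 (adjusted p = 4.13e-04). Its cone level was 7.76 ± 1.64 CPM (SD, n = 3) at day 5 and 75.3, 57.2 and 86.8 CPM in the day 12 libraries. Grem1 differed by -0.52 ± 0.64 at day 5, a change of 4.76 ± 0.83 (adjusted p = 0.00299), and Olig2 by 1.06 ± 0.40, a change of 4.91 ± 0.75 (adjusted p = 0.00150). For Olig2 the rod mean was 3.68 ± 0.292 CPM at day 5, against at most 0.286 CPM at day 12. In the other direction, the difference of Hk2, a hexokinase, went from 3.35 ± 0.30 at day 5 to 0.54 ± 0.25 at day 12 (change -2.81 ± 0.39, adjusted p = 6.69e-04). Without rod library 2 the day 12 difference of Hk2 was 0.88 and was called higher (adjusted p = 0.0359). The difference of Pde8b, a cyclic AMP phosphodiesterase, went from -0.27 ± 0.22 to -2.31 ± 0.23 (change -2.04 ± 0.31, adjusted p = 0.00142). Rax had 91.3 ± 9.09 CPM in cone and 79.1 ± 5.48 CPM in rod cultures at day 5, where the difference of 0.21 ± 0.19 was not called (adjusted p = 0.573; change to day 12 -1.29 ± 0.28, adjusted p = 0.0157).

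Some day 12 differences were smaller at day 21. That of Jag1 went from 2.18 ± 0.32 to 0.24 ± 0.30 (change -1.94 ± 0.43, adjusted p = 0.0419). In the fit without rod library 2 the change of Jag1 was -1.83 and not called (adjusted p = 0.0890). Neb, the thin-filament protein nebulin, went from 2.61 ± 0.42 to -0.42 ± 0.40 (change -3.04 ± 0.58, adjusted p = 0.0176). Cacna2d3, a calcium channel subunit, and Chrna3, a nicotinic receptor subunit, were not called at day 12 (-0.33 ± 0.29 and -0.53 ± 0.29) and were higher in cone cultures at day 21 (3.13 ± 0.33 and 2.23 ± 0.30; adjusted p = 5.73e-07 and 1.34e-05), changes of 3.46 ± 0.44 and 2.76 ± 0.41 (adjusted p = 4.17e-04 and 0.00409). Nptx1, a neuronal pentraxin, was lower at day 12 (-1.80 ± 0.30) after no difference was called at day 5 (0.04 ± 0.27, adjusted p = 0.956), and its change to day 21 was 2.65 ± 0.41 (adjusted p = 0.00424).

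Some calls depended on rod library 2. Among the genes lost without it, Reep6, an endoplasmic reticulum protein of rods, had 9.80, 28.7 and 7.65 CPM in the cone libraries and 16.1, 134 and 25.1 CPM in the rod libraries (-1.92 ± 0.55, adjusted p = 0.0247; -0.41 and 0.682 without it). Sct, secretin, had 1.87, 1.24 and 2.78 CPM against 1.64, 19.9 and 3.17 CPM, and Tmem229b 8.63, 13.6 and 6.96 against 9.57, 33.8 and 14.3 CPM, and rod library 2 was the highest for both. Among the genes gained, Camk2a, a neuronal kinase, had 9.45, 7.84 and 10.3 CPM against 1.57, 8.46 and 2.09 CPM (1.18, adjusted p = 0.0608; 2.32 and 6.60e-05 without it). Ptgr2, a prostaglandin reductase, followed the same order, with 20.2, 17.8 and 16.9 against 6.00, 19.9 and 8.00 CPM. For Sash1 the order was turned, with 127, 122 and 135 against 230.1, 93.1 and 218 CPM, and rod library 2 below the cone libraries. Of 111 called genes on the lists or chosen by rule, 73 stayed called with each of the 6 day 12 libraries left out in turn and 38 did not.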

How the data were processed

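The authors deposited, for each of 33 libraries, raw read counts per gene and a table of TPM, FPKM and mean coverage, a per-base signal, per the file headers. The submitters' processing notes name HISAT2, HTSeq, StringTie and GRCm38, and versions and strand setting are not given in the sources used here. FPKM and coverage were not used. TPM served as 1 alternative: 19.4% of day 12 values above 200 counts were listed at TPM 0.

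The 5 summary lines of each count table were dropped. Unassigned reads without a feature made up 26.3% to 29.3% of the day 12 reads. Of 47729 genes, 47224 matched a symbol, and 18150 passed edgeR's filterByExpr (minimum count 10) on the 33 libraries. The edgeR quasi-likelihood model (edgeR 4.0.16, R 4.3.3, TMM scaling) held a term for each of 11 groups, and Benjamini-Hochberg adjusted p under 0.05 was the threshold. Principal components used log2 CPM with a prior count of 2. Totals ran from 9214279 to 15249412 counts at day 12.

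On data simulated for the day 12 comparison (17987 genes), the test recovered 52% of genes changed 2-fold and 89% of those changed 4-fold, with 5 false calls. Changed genes were drawn only from those above a minimum mean level. The simulation used the spread fitted over all 33 libraries (0.213 in common) and held no library apart. The real rod group had a spread of 0.355, so these rates may not hold for it.

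The members and gene lists were chosen with earlier results of these data known. Named genes were 6 set genes (Sox15, Nrl, Crx, Opn1sw, Gnat2 and Mki67), the 10 largest rises and 10 largest falls without overlap at a mean log2 CPM of at least 1, the 4 called genes of smallest p per list (or the 2 of highest level where none was called), the 3 strongest in each direction of each change between days, and the 3 largest losses and gains without rod library 2. All members of the pathway and photoreceptor lists could be given. Alternatives covered scaling, filters, DESeq2 1.42.0, voom with quality weights (limma 3.58.1), the libraries in the fit, a replicate block and leaving out libraries. Promoters came from RefSeq (GRCm38.p6). Some genes counted in the lists are not reported here by name.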

Additional observations from a re-analysis of the deposited data

Results flagged for a closer look

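The cone minus rod difference of some named genes changed between days, by the test of the change itself in the model of all 33 libraries (edgeR quasi-likelihood test, adjusted p under 0.05). From day 5 to day 12 the log2 difference moved upwards by 3.61 for Tll2, 5.52 for Scel, 4.76 for Grem1, 1.56 for Rarb, 1.77 for Bmp2, 1.55 for Ccnd1, 1.40 for Top2a, 4.91 for Olig2, 1.51 for Pcdh7, 3.27 for Col7a1 and 1.06 for Klf3. It moved downwards over the same days, with changes of -1.64 for Nkd1, -1.29 for Rax, -1.48 for Slc6a9, -2.26 for Flt1, -2.58 for Vegfa, -2.81 for Hk2, -2.04 for Pde8b, -1.69 for Fabp5, -1.84 for Nptx1 and -2.75 for Reep6. Of these 21 changes, 14 were also called without rod library 2 and all 21 kept their sign; the calls of Scel, Bmp2, Top2a, Flt1, Vegfa, Nptx1 and Reep6 were lost.

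From day 12 to day 21 the difference moved upwards by 4.48 for Pdgfra, 1.18 for Fabp5, 3.46 for Cacna2d3, 2.76 for Chrna3 and 2.65 for Nptx1. It moved downwards with changes of -1.44 for Rai14, -1.94 for Jag1, -1.85 for Col7a1, -2.11 for Rin1, -1.94 for Scube3 and -3.04 for Neb. Of these 11 changes, 6 were also called without rod library 2 and all 11 kept their sign; the calls of Rai14, Jag1, Pdgfra, Col7a1 and Fabp5 were lost. Col7a1, Fabp5 and Nptx1 appear in both spans with opposite signs. The 2 spans share the day 12 libraries, so a value of day 12 that stands apart enters both with opposite sign.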

How the results depend on the processing

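The count of genes called at day 12 (1833) stayed within 1.5 times under size factors of DESeq2, both other filters, the DESeq2 test (2189) and the removal of mitochondrial and rRNA genes. It was 4146 with voom and sample quality weights, 363 with the 6 day 12 libraries alone, 643 with those 6 less rod library 2, 131 with limma on log2(TPM + 1) and 1168 with library 2 left out of both groups. The voom weights of rod libraries 1 to 3 were 0.403, 0.246 and 5.16. Every voom value given here therefore rests mostly on rod library 3 for the rod group. Leaving out 1 library gave 986 (without cone library 3) to 2544 (without rod library 1). The share of called genes higher in cone cultures (59.2%) was 63.25% with no filter, 53.03% with the 5 libraries, 55.7% without mitochondrial and rRNA genes, 44.27% with TPM, 55.14% with library 2 left out of both groups, and 55.46% to 62.88% with 1 library left out. The count of changes from day 5 to day 12 (583) was 1229 with DESeq2, 2379 with voom, 47 with TPM, 233 with library 2 left out of both groups, and 84 (without cone day 12 library 3) to 2087 (without rod day 12 library 1). From day 12 to day 21 (78), it was 139 with no filter, 336 with DESeq2, 1503 with voom, and 6 (without cone day 12 library 3) to 739 (without rod day 12 library 1). With limma on TPM it was 0 adjusted, where 985 of 18150 genes had an unadjusted p under 0.05, near the share that this threshold passes by chance. The cause of these changes of count was not tested.

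Replicate numbers matched the day 12 libraries only in part. Deviations from the group mean correlated at 0.0198, 0.513 and 0.0559 between same-numbered libraries 1, 2 and 3. The cone and rod libraries numbered 2 matched each other best, whereas cone library 3 matched rod library 1 best (0.4635). Deviations from a mean of 3 libraries depend on each other, so these values cannot settle whether the numbers mark pairs. With the replicate block, 1903 genes were called at day 12, 742 and 85 between days, and 251 in the 6 libraries alone.

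Of the 95 called named genes, 69 stayed called with each library left out in turn, and in every one of those 6 fits all 95 kept their direction. DESeq2 kept all 95 calls, and voom lost 4. The 6 day 12 libraries alone lost 48 of 93, or 60 of 93 with a replicate block. The 5 libraries without rod library 2 lost 36 of 94. With library 2 left out of both groups, 23 of 95 were lost. Limma on log2(TPM + 1) lost 59 of 83 and reversed 10 more. The log2 fold changes that reversed had been Sox15 0.19, Nrl -2.51, Crx -1.44, Opn1sw 0.78, Gnat2 0.53, Mki67 0.20, Hes1 -0.66, Ado 0.01, Gnb3 -0.38, Kcnv2 -1.0, Sag -1.49, Gnat1 -2.06, Rp1 -0.89, Rbp3 -0.15, Top2a 0.20, Ebf3 -1.36, Syt1 -0.06, Spon1 -0.99, Mip 4.51, Flt1 -2.05, Eng 2.19, H2-D1 1.09, H2-K1 0.81, Klf3 0.21, Nptx1 -1.80, Tmem229b -0.98 and Ptgr2 0.69 with all libraries. With voom and sample quality weights, they were Sox15 -0.43, Ado -0.035, Kcnv2 1.65, Sag 1.07, Rp1 1.31, Rbp3 1.26 and Syt1 0.36. With limma on log2(TPM + 1), they were Sox15 -0.55, Gnat2 -0.69, Mki67 -0.23, Hes1 0.0047, Ado -0.066, Top2a -0.23, Ebf3 0.18, Spon1 0.38, Mip -0.20, Flt1 0.56, Eng -0.048, H2-D1 -0.55, H2-K1 -0.15, Klf3 -0.37, Nptx1 0.012, Tmem229b 0.062 and Ptgr2 -0.52. With library 2 left out of both groups, they were Sox15 -0.27, Mki67 -0.025, Ado -0.014, Kcnv2 0.66, Sag 0.90, Rp1 0.95, Rbp3 0.76, Top2a -0.026 and Syt1 0.086. With the 5 day 12 libraries left without rod library 2, they were Nrl 1.81, Crx 0.20, Mki67 -0.098, Gnb3 0.35, Kcnv2 2.80, Sag 2.63, Gnat1 0.69, Rp1 2.56, Rbp3 2.72, Top2a -0.088 and Syt1 0.42. With the 6 day 12 libraries alone, Ado was -0.0053. Without mitochondrial and rRNA genes, Ado was -0.012. With the replicate block on the 6 day 12 libraries, they were Ado -0.0067, Sag 0.13, Rp1 0.27 and Rbp3 0.45. Leaving out 1 library gave Sox15 -0.18 to 0.92, Nrl -4.36 to 1.84, Crx -2.33 to 0.20, Opn1sw -1.0 to 2.40, Gnat2 -0.51 to 1.5, Mki67 -0.094 to 0.56, Ado -0.052 to 0.074, Gnb3 -1.55 to 0.35, Kcnv2 -3.15 to 2.81, Sag -3.24 to 2.63, Gnat1 -3.71 to 0.69, Rp1 -2.49 to 2.56, Rbp3 -2.11 to 2.72, Top2a -0.084 to 0.49 and Syt1 -0.40 to 0.42. The cause of these reversals was not tested. Genes with all 6 TPM values at 0 have no TPM value. Low counts limit the genes near 3 counts per library, among them Sox15, Opn1sw, Wnt7b and Olig2.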

Other observations

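Replicate 2 had the lowest score on the first principal component in 7 of the 8 groups from day 5 on, the exception being rod cultures at day 35. At day 12 its score was 34.6 in cone cultures and -11.9 in rod cultures, and the photoreceptor sums of library 2 were the highest of both groups. What the replicate numbers share is not given in the labels.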
